A study of Mus musculus with 2 samples.

Results

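Tight junctions are the belts of contact that seal the space between neighbouring epithelial cells and set which ions and solutes pass between them. Claudins form the strands of the belt. Some claudins form pores for ions or water, whereas others tighten the seal. Occludin is a further membrane protein of the belt, and the zonula occludens scaffolds tie claudins and occludin to the actin cytoskeleton. In the intestine, leaky and tight claudins are known to be used in different amounts along the axis from crypt to villus. The genes described here were *Cldn2* and *Cldn15*, which encode pore-forming claudins, *Cldn3* and *Cldn4*, which encode sealing claudins, *Cldn7* and *Cldn23*, which encode other claudins of the gut, *Ocln*, which encodes occludin, and the scaffold genes *Tjp1* and *Tjp3*, which encode ZO-1 and ZO-3. They were chosen by symbol and are 9 of the 27998 genes counted.

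Ileal epithelium of WT and *Tipe0*-/- mice on the C57BL/6 background was profiled by sc-RNASeq at 8 weeks of age. *Tipe0*-/- mice lack *Tnfaip8*, whose product is a carrier of lipid second messengers. Cells of several mice were pooled per genotype before sequencing, so mice cannot be told apart and each genotype is 1 library of unique molecular identifiers (UMIs), which count each captured mRNA molecule once. There was therefore no replicate of either genotype and no test between them. Levels are UMIs per 1000000 UMIs of the group (CPM), and ranges in brackets are exact 95% Poisson intervals, which cover counting error only and neither mouse nor library.

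The WT library held 3402 cells and the *Tipe0*-/- library 2006, with 38127808 and 23897126 UMIs and no cell under 3247 UMIs. The libraries shared 9 barcodes. *Tnfaip8* stood at 9.76 CPM in WT and 2.39 CPM in *Tipe0*-/- cells. Mitochondrial genes took 6.59% and 8.56% of UMIs, and lymphocyte-like cells made up 2.67% and 0.798% of cells. Summed B cell markers stood at 32.5 and 16.3 CPM and haemoglobin and other erythroid markers at 31.6 and 81.9 CPM. Summed endothelial markers stood at 4.38 and 3.85 CPM, with *Cdh5* and *Kdr* at 0 and *Egfl7* at 87 and 44 UMIs. Summed stromal markers stood at 2.68 and 1.76 CPM, with *Pdgfra* at 0 and *Dcn* at 58 and 24 UMIs. The part of these in the ratios between libraries was not tested. Clustering without the 4 variable junction genes gave 13 clusters, of which 11 could be named from their markers. The stem-like cluster was led by *Lgr5*, *Smoc2* and *Ascl2*. Next to it lay a replicating cluster led by *Dtl*, *Uhrf1* and *Mcm6*, which stayed unnamed, and a cycling-like cluster led by *Ube2c* and *Cdc20*. There were 3 enterocyte-like clusters, led by *Slc40a1*, by *Arg2* and *Fabp6*, and by *Apoa1* and *Apoa4*, and 3 goblet-like clusters. The first goblet-like cluster carried *Spdef* and *Dll1*, the next *Fcgbp* and *Retnlb*, and the last *Zg16* and *Fer1l6*. A Paneth-like, a tuft-like and a lymphocyte-like cluster and an unnamed cluster led by *Akr1c19* made up the rest.

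The *Cldn3* and *Cldn4* genes are neighbours on mouse chromosome 5 and are transcribed away from each other. In the GENCODE annotation of GRCm38, *Cldn4* lies at chr5:134945119-134946934 on the minus strand and *Cldn3* at chr5:134986214-134987472 on the plus strand, with 39279 bases between them. *Cldn15* lies on the same chromosome at chr5:136966616-136975858. *Cldn2* lies at chrX:139800828-139811386, *Cldn7* at chr11:69964779-69967885, *Cldn23* at chr8:35824712-35826559, *Ocln* at chr13:100496507-100552718, *Tjp1* at chr7:65296165-65527781 and *Tjp3* at chr10:81273207-81291581. *Cldn3* overlaps *Wbscr25* and *Tjp3* overlaps *Apba3*, each on the other strand. *Tjp1* overlaps the predicted genes *Gm44794* and *Gm44792* on its own strand and *Gm44795* on the other. No strand setting of the counting is given in the sources used here, and whether reads of such pairs were shared was not tested.

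The 250 bases before the transcription start are shown for *Cldn2*, *Cldn3* and *Cldn4*, a pore-forming claudin and the 2 neighbouring sealing claudins, whose levels by cluster are described below. They come from RefSeq on GRCm38.p6, at chrX:139800558-139800807 on the plus strand for *Cldn2*, chr5:134985964-134986213 on the plus strand for *Cldn3* and chr5:134946935-134947184 on the minus strand for *Cldn4*. Capitals mark matches on either strand to the letters TATAAA for the TATA box, CACCC for KLF factors, TTTATG for CDX factors, AGATAA for GATA factors or GTTAAT for HNF1 factors, with no match overlapping another.
Cldn2: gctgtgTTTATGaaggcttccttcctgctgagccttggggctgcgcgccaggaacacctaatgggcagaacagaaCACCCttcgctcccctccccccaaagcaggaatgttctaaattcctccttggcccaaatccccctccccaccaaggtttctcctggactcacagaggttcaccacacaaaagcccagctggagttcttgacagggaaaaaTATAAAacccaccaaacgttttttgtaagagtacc
Cldn3: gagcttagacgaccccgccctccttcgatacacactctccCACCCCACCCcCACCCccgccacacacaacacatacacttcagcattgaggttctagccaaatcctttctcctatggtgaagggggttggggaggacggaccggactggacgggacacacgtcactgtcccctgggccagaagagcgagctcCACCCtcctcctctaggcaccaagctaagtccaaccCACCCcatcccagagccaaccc
Cldn4: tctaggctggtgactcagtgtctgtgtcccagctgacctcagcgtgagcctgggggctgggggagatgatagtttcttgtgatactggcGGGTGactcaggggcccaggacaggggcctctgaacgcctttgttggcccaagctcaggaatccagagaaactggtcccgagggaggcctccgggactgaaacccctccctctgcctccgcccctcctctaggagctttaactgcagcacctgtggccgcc
The window of *Cldn2* held 1 match to TATAAA as well as 1 to TTTATG and 1 to CACCC, that of *Cldn3* 5 matches to CACCC, and that of *Cldn4* 1 match to CACCC. Of 32817 promoter windows of the same length, 12.4% held TATAAA, 10.8% TTTATG, 52% CACCC, 9.99% AGATAA and 6.44% GTTAAT. These matches describe letters only.

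**Figure D1:**
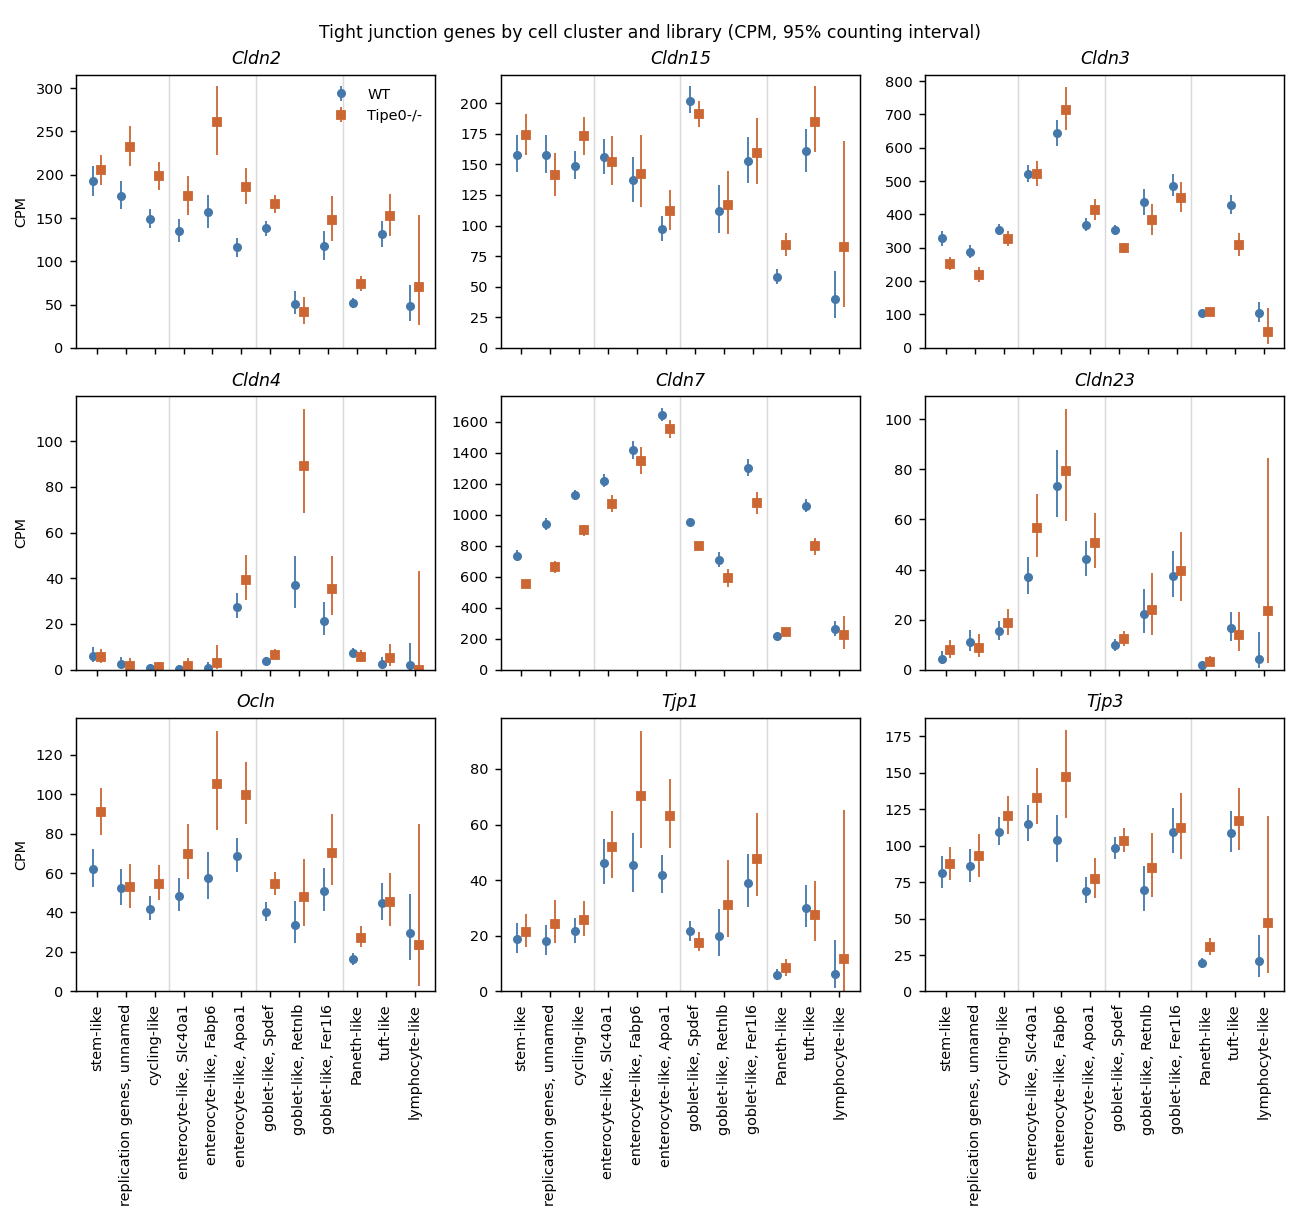
Level in CPM (vertical axes, from 0) of each tight junction gene in 12 clusters, ordered from stem-like to enterocyte-like, then goblet-like and the rest, in WT (circles) and Tipe0-/- cells (squares), with exact 95% Poisson intervals as bars. *Cldn7* is at 736 and 553 CPM in stem-like cells and at 1645 and 1552 CPM in the *Apoa1* cluster, while *Cldn4* stands above 20 CPM only in the *Apoa1* cluster and in the *Retnlb* and *Fer1l6* goblet-like clusters in both libraries.

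*Cldn2*, whose product forms a pore for sodium and water and is known from crypts, was highest in stem-like cells among the 6 epithelial classes in both libraries. It stood there at 193 CPM (176 to 209.9) in WT and 205 CPM (188 to 223) in *Tipe0*-/- cells. In WT the next class was cycling-like cells at 149 CPM (138 to 160.1), and the intervals did not overlap. In *Tipe0*-/- cells the intervals of stem-like, cycling-like (198 CPM) and enterocyte-like cells (195 CPM) overlapped, so that their order is not resolved. Enterocyte-like cells of WT stood at 131 CPM (123 to 139). Among WT clusters, replicating cells had 176 CPM (160.4 to 193), and their interval overlapped that of stem-like cells. So did those of the WT *Fabp6* cluster, with 157 CPM (138 to 177), and *Akr1c19* cluster, with 156 CPM (133 to 182). By cluster, the *Fabp6* cluster of the *Tipe0*-/- library, with 261 CPM (223 to 302), the replicating cells (232 CPM) and the *Akr1c19* cluster (226 CPM) had higher values than its stem-like cells, although their intervals overlapped or met that of stem-like cells. The goblet-like clusters were unequal. The *Retnlb* cluster had 51.2 CPM (39.2 to 65.6) in WT and 41.0 CPM (27.4 to 58.9) in *Tipe0*-/- cells, against 138 and 166 CPM in the *Spdef* cluster. The order of these 2 clusters was the opposite of that for *Cldn4*.

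*Cldn15*, which encodes the other pore-forming claudin of the small intestine, was spread more evenly. In WT it stood at 158 CPM (144 to 174) in stem-like, 149 CPM in cycling-like, 182 CPM (174 to 191) in goblet-like and 161 CPM in tuft-like cells. In *Tipe0*-/- cells the same classes had 174, 173, 181 and 185 CPM, and all neighbours in that order overlapped. Enterocyte-like cells were lower, with 126 CPM (118 to 134) and 133 CPM (121 to 145), and their intervals did not reach those of the classes above. The *Spdef* goblet-like cluster had 202 CPM (192 to 214) and 191 CPM (180.3 to 202), the highest value of the 13 clusters in both libraries.

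*Cldn3*, a sealing claudin, was highest in enterocyte-like cells, with 478 CPM (463 to 493) in WT and 508 CPM (485 to 531) in *Tipe0*-/- cells. No other class reached these intervals. By cluster, the *Fer1l6* goblet-like cluster overlapped them, with 486 CPM (454 to 520.0) in WT and 450.4 CPM (407 to 497) in *Tipe0*-/- cells. Among the enterocyte-like clusters the *Fabp6* cluster led with 643 CPM (605 to 683) and 714 CPM (652 to 781), and the *Apoa1* cluster was lowest with 369.7 and 413 CPM. Stem-like cells had 328 CPM (306 to 350.1) and 252 CPM (233 to 272).

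*Cldn4*, the other sealing claudin, had 296 UMIs in WT and 250 in *Tipe0*-/- cells in all, and these were gathered in a few clusters. The *Apoa1* cluster had 27.6 CPM (22.5 to 33.5) in WT and 39.3 CPM (30.4 to 50) in *Tipe0*-/- cells. The other enterocyte-like clusters had 1 or 2 UMIs each per library, or at most 3.0 CPM. The *Retnlb* goblet-like cluster had 37.1 CPM (27.1 to 49.7) and 89.0 CPM (68.4 to 114), and the *Fer1l6* cluster 21.5 CPM (15.2 to 29.5) and 35.1 CPM (23.8 to 49.8). The *Spdef* cluster had 3.85 and 6.53 CPM, and stem-like cells 6.00 and 5.43 CPM. The UMIs of *Cldn4* thus lay mostly in 3 clusters, the *Apoa1* cluster 34.1% and 26.4% of all *Cldn4* UMIs, the *Retnlb* cluster 15.2% and 25.2%, and the *Fer1l6* cluster 12.8% and 12.4%. Paneth-like cells, the deepest class, held a further 16.6% and 8.40% at 7.31 and 5.62 CPM, and the *Spdef* cluster, the largest goblet-like cluster, 8.78% and 16%. The 10 cells with the most held 17.6% of the *Cldn4* UMIs in WT and 24.8% in *Tipe0*-/- cells, against at most 7.34% for any other member. Such a share rises as the total falls, and *Cldn4* had the fewest UMIs of the members in each library. How much of the gap this makes up was not tested.

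A clustering with 2000 variable genes, which also left out the junction genes, gave an enterocyte-like cluster of 71 WT and 31 *Tipe0*-/- cells led by *Apoa4*, *Ada*, *Slc28a2* and *Creb3l3*, which are known from the villus tip. *Cldn4* reached 218 CPM (176 to 267) and 323 CPM (243 to 420.3) in it, which was 31.1% and 22.0% of its UMIs. *Cldn2* had 5 UMIs per library there, or 11.8 CPM (3.84 to 27.6) and 29.4 CPM (9.53 to 68.5). *Cldn7* stood at 1857 and 1738 CPM, *Cldn3* at 450.0 and 540.1 CPM, *Cldn23* at 99.5 and 112 CPM, and *Ocln* at 104 and 164 CPM in these cells. The same clustering gave 38 WT and 26 *Tipe0*-/- enteroendocrine-like cells, in which *Cldn4* had 34.5 CPM (19.7 to 56.0) and 15.9 CPM (6.4 to 32.8) and *Cldn2* 116 and 198 CPM.

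*Cldn7*, which encodes a claudin of the lateral as well as the apical membrane, differed stepwise from the stem-like to the *Apoa1* cluster. It stood at 736 CPM (704 to 769.7) in stem-like, 940.4 CPM in replicating, 1128 CPM in cycling-like, 1221 CPM in *Slc40a1*, 1419 CPM in *Fabp6* and 1645 CPM (1604 to 1687) in *Apoa1* cells of WT. The same clusters of *Tipe0*-/- cells had 553, 663, 899, 1070.3, 1348 and 1552 CPM, the same order. No neighbours in either series overlapped. UMIs of *Cldn7* were found in 3251 of 3402 WT and 1924 of 2006 *Tipe0*-/- cells.

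*Cldn23*, a claudin known from differentiated intestinal cells, was highest in enterocyte-like cells, which held 53.7% and 46.1% of its UMIs. Stem-like cells had 4.13 CPM (2.06 to 7.39) in WT and 7.76 CPM (4.74 to 12) in *Tipe0*-/- cells, cycling-like cells 15.4 and 18.5 CPM, and enterocyte-like cells 47.5 CPM (42.9 to 52.5) and 58.0 CPM (50.6 to 66.2). Its highest cluster was the *Fabp6* cluster, with 73.5 CPM (61.0 to 87.8) and 79.4 CPM (59.5 to 104), which overlapped the other enterocyte-like clusters in *Tipe0*-/- but not in WT cells. The *Fer1l6* goblet-like cluster had 37.3 and 39.6 CPM, against 9.78 and 12.2 CPM in the *Spdef* cluster. Paneth-like cells had 1.94 and 2.94 CPM, from 13 and 11 UMIs.

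*Ocln* had its highest values in stem-like and in enterocyte-like cells. Stem-like cells had 61.9 CPM (52.8 to 72.1) in WT and 90.7 CPM (79.5 to 103) in *Tipe0*-/- cells, and enterocyte-like cells 59.4 CPM (54.2 to 64.9) and 89.1 CPM (79.9 to 99.1). The intervals of the 2 classes overlapped in each library. Cycling-like cells had 41.9 CPM (36.2 to 48.2) and 54.4 CPM (46.1 to 63.9), outside those intervals. Replicating cells had 52.5 CPM (44.0 to 62.0) in WT, which overlapped both classes. In *Tipe0*-/- cells they had 52.7 CPM (42.4 to 64.7), which overlapped neither. The *Slc40a1* enterocyte-like cluster, with 48.6 CPM (40.9 to 57.4) and 69.8 CPM (56.8 to 84.8), overlapped cycling-like cells in both libraries.

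*Tjp1*, which encodes ZO-1, was highest in enterocyte-like cells, with 44.1 CPM (39.7 to 48.9) in WT and 60.1 CPM (52.6 to 68.4) in *Tipe0*-/- cells. Stem-like cells had 18.8 and 21.3 CPM, and cycling-like cells 21.7 and 25.8 CPM, without a gap between their intervals. *Tjp3*, which encodes ZO-3, was flat by comparison over the classes. It ranged in WT from 81.4 CPM in stem-like to 109.5 CPM in cycling-like cells, and in *Tipe0*-/- cells from 87.3 to 120.5 CPM in the same classes, leaving out Paneth-like cells. Neighbours in that order overlapped, although these 2 ends did not. Within enterocyte-like cells *Tjp3* was uneven, with 115 and 133 CPM in the *Slc40a1* cluster and 104 and 147 CPM in the *Fabp6* cluster. The *Apoa1* cluster had 69.1 and 76.9 CPM. The 2 scaffold genes thus had unlike profiles.

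Paneth-like cells had the lowest CPM of the 6 epithelial classes for every member but *Cldn4* in both libraries, for example 219 and 246 CPM of *Cldn7*. Paneth marker transcripts took 83419.9 and 80198 CPM in these cells. The median of all genes itself had a log2 ratio to stem-like cells of -1.75 in WT and -1.29 in *Tipe0*-/- cells. Whether the marker transcripts account for that median was not tested. Read against that median, the 7 members with enough UMIs lay between -0.44 and 0.30 in Paneth-like cells.

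Each class was set against stem-like cells of its own library for all genes with at least 50 UMIs in both classes together. A gene was counted as higher or lower when its log2 ratio lay at least 1 from the median of all genes in both libraries, with no test. In enterocyte-like cells 4 of 9 members were higher and 0 lower, where 19.4% of 8215 genes were higher and 19.3% lower. These were *Cldn4*, *Cldn7*, *Cldn23* and *Tjp1*. *Cldn23* had a log2 ratio of 3.46 (2.67 to 4.54) in WT and 2.87 (2.24 to 3.64) in *Tipe0*-/- cells. Its stem-like level rests on 11 and 20 UMIs, and its share of stem-like cells is not above that of lymphocyte-like cells. The size of this ratio, and of those of *Cldn23* in cycling-like and goblet-like cells, is thus imprecise beyond its counting interval. In each of these comparisons *Cldn23* reached 50 UMIs only through the class set against stem-like cells. Its being counted as higher is thus not independent of that filter. *Tjp1* had 1.22 (0.80 to 1.69) and 1.48 (1.06 to 1.95), *Cldn4* 1.03 (0.30 to 1.93) and 1.72 (0.92 to 2.71), and *Cldn7* 0.98 (0.91 to 1.05) and 1.27 (1.18 to 1.35), each before subtracting the all-gene medians of -0.37 and -0.28. *Cldn3* lay at 0.91 and 1.29 relative to those medians, on either side of the fold. *Cldn2* lay at -0.19 and 0.20 and *Ocln* at 0.31 and 0.25. The ratios of *Cldn4* to stem-like cells rest on 16 and 14 stem-like UMIs and are imprecise as well. *Cldn4*, too, reached 50 UMIs here only through enterocyte-like cells. Its share of stem-like cells is not shown to lie above that of lymphocyte-like cells. Of its 103 and 70 enterocyte-like UMIs, 101 and 66 lay in the *Apoa1* cluster, so its ratio does not describe the other enterocyte-like clusters.

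In cycling-like cells 1 of 8 members was higher, *Cldn23*, and 0 lower, against 2.48% and 3.47% of all genes. In goblet-like cells 1 of 9 was higher, again *Cldn23*, and 0 lower, against 6.09% and 2.03%. *Cldn4* missed that count narrowly, at 1.0 and 1.72 relative to the median, with the first value just under 1 before rounding, and 6 of the 7 alternatives counted it. In Paneth-like cells 0 of 7 members were higher and 0 lower, against 3.55% and 0.111% of genes, and in tuft-like cells 0 of 7 and 0 of 7, against 3.29% and 2.14%. With so few members these shares cannot be set apart from the background, and the count for *Cldn23* in cycling-like cells was lost in 4 of 7 alternatives.

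Enterocyte-like cells were next ordered by a score over 9 genes known from the villus tip, among them *Apoa4*, *Ada* and *Nt5e*, and divided into 3 equal ranges. The lowest, middle and highest range held 312, 329 and 292 WT cells and 154, 136 and 173 *Tipe0*-/- cells. Nearly all cells of the highest range came from the *Apoa1* cluster, whose leading genes *Apoa1* and *Apoa4* are in the score, with 287 of 292 and 171 of 173 cells. Of the 1396 cells, 635 lay within 0.1 of a border of the score, so the ranges are stretches of a continuum and not cell types. Position along the villus was not measured.

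**Figure D2:**
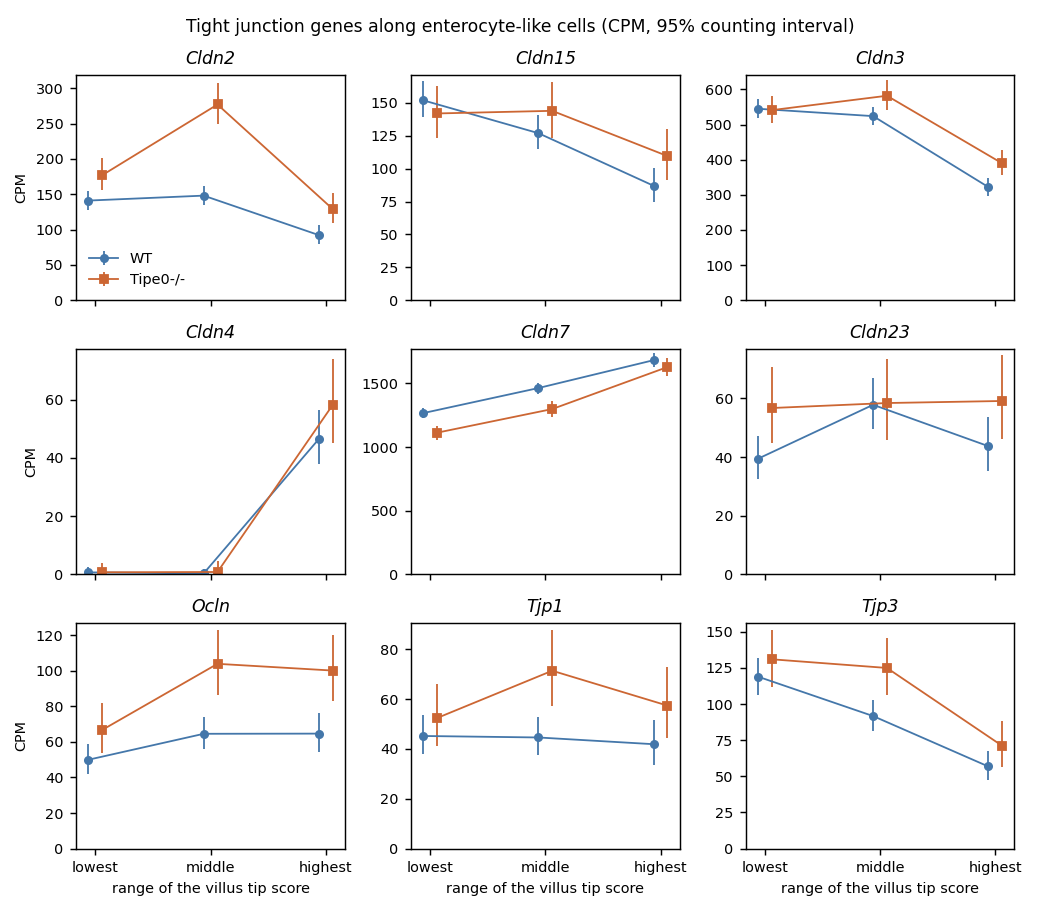
Level in CPM (vertical axes, from 0) of each tight junction gene in enterocyte-like cells in the lowest, middle and highest range of the villus tip score (horizontal axes), in WT (circles) and Tipe0-/- cells (squares), with exact 95% Poisson intervals. *Cldn4* is under 1 CPM in the lower and middle range and at 46.5 and 58.2 CPM in the highest, while *Tjp3* is lowest in the highest range at 56.8 and 71.1 CPM.

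*Cldn4* appeared only at the high end of the score. It had 2 and 1 UMIs in WT and 1 and 1 in *Tipe0*-/- cells in the lowest and middle range, and 100 and 68 UMIs in the highest, or 46.5 CPM (37.9 to 56.6) and 58.2 CPM (45.2 to 73.8). Across the highest and lowest range it was one of 3 members that were higher by at least 0.5 from the all-gene median in both libraries, the others being *Cldn7* and *Ocln*. *Cldn4* had at least 50 UMIs in that comparison only through the highest range, so its being counted as higher is not independent of that filter. *Cldn7* had a log2 ratio of 0.41 (0.34 to 0.48) in WT and 0.55 (0.45 to 0.65) in *Tipe0*-/- cells, and *Ocln* 0.37 (0.02 to 0.72) and 0.58 (0.18 to 0.99), with all-gene medians of -0.30 and -0.17. Of all 5043 genes, 23.9% were higher by this measure and 23.7% lower.

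*Tjp3* was the member counted as lower, with a log2 ratio of -1.06 (-1.37 to -0.76) and -0.87 (-1.27 to -0.50). With 2 ranges in place of 3, neither *Tjp3* nor *Ocln* passed the fold. The levels of *Tjp3* were 119 and 131 CPM in the lowest range, and 56.8 CPM (47.1 to 67.8) and 71.1 CPM (56.6 to 88.1) in the highest. The 3 remaining claudins that were lower at the high end did not pass the fold in both libraries. *Cldn3* stood at 545, 524 and 322 CPM across the ranges of WT and 541, 582 and 389.6 CPM across those of *Tipe0*-/- cells. *Cldn15* went from 152 to 87.0 CPM and from 142 to 109.6 CPM. *Cldn2* had 141, 148 and 92.1 CPM in WT, but 177, 277 and 129 CPM in *Tipe0*-/- cells, so that its middle range was its highest there. *Cldn23* and *Tjp1* had overlapping intervals at the 2 ends in both libraries. Across these ranges the neighbours *Cldn3* and *Cldn4* differed in opposite directions, although *Cldn3* did not pass the fold. In the cluster with tip genes, where *Cldn4* was highest, *Cldn3* was not low. It stood there at 450.0 CPM (388 to 519) in WT and 540.1 CPM (435 to 662) in *Tipe0*-/- cells, above its highest range.

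Shares of cells with at least 1 UMI were taken after each cell had been thinned to 3000 UMIs, since cells differed in depth. Lymphocyte-like cells, which are not epithelial and were taken to lack these junctions, were used as a guide to the level of free RNA. Their summed enteroendocrine markers stood at 2688 CPM in WT, against 328 CPM in all WT cells. In *Tipe0*-/- cells these values were 11.7 and 361 CPM. Whether epithelial cells or doublets lay in this cluster, or its lymphocytes carried such transcripts themselves, was not tested. Its shares may thus exceed free RNA. The median depth of lymphocyte-like cells was 4456 and 4311.5 UMIs, against 6226 and 6747 in stem-like and 6466 and 5673 in enterocyte-like cells. With 91 and 16 lymphocyte-like cells this background is imprecise, above all in the *Tipe0*-/- library.

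**Figure D3:**
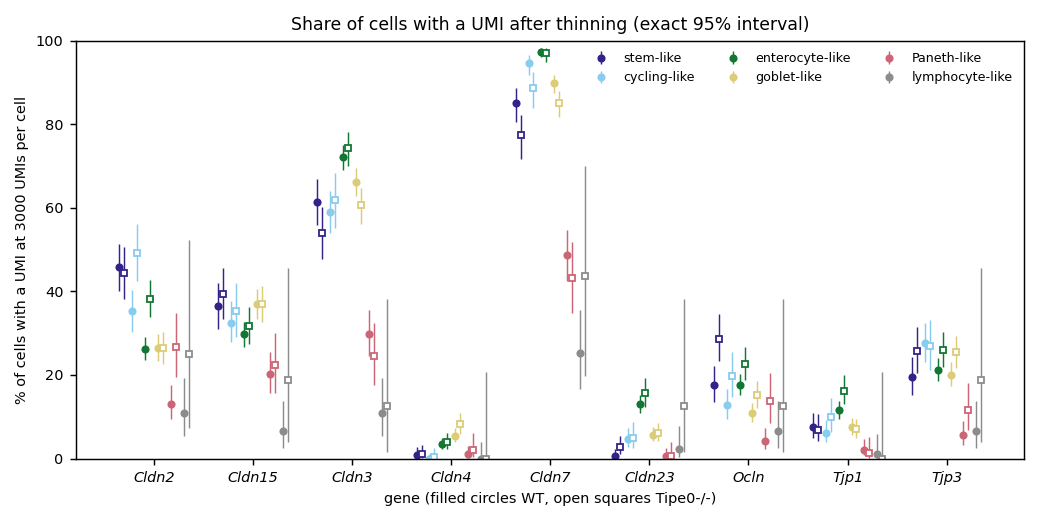
Percent of cells (vertical axis, 0 to 100) with at least 1 UMI of each tight junction gene (horizontal axis) after thinning to 3000 UMIs per cell, in 6 cell classes (colours) of WT (filled circles) and Tipe0-/- (open squares), with exact 95% Clopper-Pearson intervals. *Cldn7* is found in 97.3% and 97.0% of enterocyte-like cells, and the grey lymphocyte-like points serve as a guide to free RNA.

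*Cldn7* was found in 97.3% of WT and 97.0% of *Tipe0*-/- enterocyte-like cells, against 25.3% and 43.8% of lymphocyte-like cells. *Cldn2* was found in 45.8% and 44.4% of stem-like and in 26.3% and 38.2% of enterocyte-like cells, against 11% and 25% (4 of 16 cells) of lymphocyte-like cells. Without thinning, the shares of *Cldn2* in stem-like cells were 70.2% and 70.1%. In *Tipe0*-/- cells the lymphocyte-like interval of *Cldn2* (7.27% to 52.4%) includes the thinned shares of stem-like and enterocyte-like cells. These are thus not shown to lie above background in that library. The same holds there for the stem-like and enterocyte-like shares of *Cldn15*, *Ocln*, *Tjp1* and *Tjp3*. Their lymphocyte-like intervals were 4.05% to 45.6%, 1.55% to 38.3%, 0% to 20.6% and 4.05% to 45.6%. In WT the stem-like and enterocyte-like shares of these members lay above the lymphocyte-like intervals. *Cldn23* was found in 13% and 15.6% of enterocyte-like cells, but in 0.627% and 2.68% of stem-like cells. The latter is not above its 2.20% and 12.5% in lymphocyte-like cells and so is not shown to lie above background. In *Tipe0*-/- cells the background of *Cldn23* rests on 2 of 16 cells, and its interval (1.55% to 38.3%) includes the share in enterocyte-like cells, which is thus not shown to lie above it. *Cldn4* was found in 11.6% and 17.1% of the *Retnlb* goblet-like cells and in 38.0% and 45.2% of the cluster with tip genes, while no UMI was left in 91 WT lymphocyte-like cells, which allows a share of up to 3.30%. In the 16 *Tipe0*-/- lymphocyte-like cells none was left either, which allows up to 18.8%, so the share in *Retnlb* cells of that library is not shown to lie above background.

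The comparison of the libraries asks how the 9 genes differ with loss of *Tnfaip8*. Fewer cells of a type and less RNA per cell cannot be told apart in whole-library sums, so these are followed by values within classes. Over 11665 genes with at least 50 UMIs the median log2 ratio of *Tipe0*-/- over WT was 0.15, and values are read against it. Of the 9 members, 3 were higher and 2 lower than this median by at least 0.25, against 19.5% and 21.0% of all genes. The median of the members was 0.15, the same as that of all genes to 2 decimals.

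**Figure D4:**
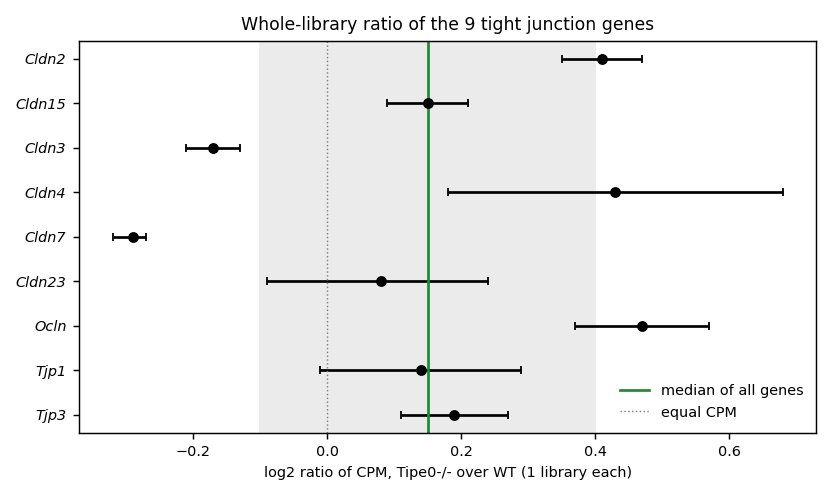
Log2 ratio of CPM, Tipe0-/- over WT (horizontal axis, 1 library each), for each tight junction gene (vertical axis) with exact 95% binomial intervals. The green line is the median of all genes at 0.15, the grey band spans 0.25 on either side of it, and *Cldn3* and *Cldn7* lie below the band at -0.17 and -0.29.

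*Ocln*, *Cldn4* and *Cldn2* were the members higher in *Tipe0*-/- cells. *Ocln* stood at 43.2 CPM (41.1 to 45.3) in WT and 59.8 CPM (56.8 to 63.0) in *Tipe0*-/- cells, a log2 ratio of 0.47 (0.37 to 0.57). *Cldn2* stood at 124 CPM (121 to 128) and 165 CPM (159.8 to 170.1), a log2 ratio of 0.41 (0.35 to 0.47). It lay at the border of the fold, 0.25 above the median, and at 0.24 with the same makeup of clusters in both libraries. *Cldn4* stood at 7.76 CPM (6.90 to 8.70) and 10.5 CPM (9.20 to 11.8), a log2 ratio of 0.43 (0.18 to 0.68), whose interval includes values under the fold.

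*Cldn7* and *Cldn3* were the members lower in *Tipe0*-/- cells. *Cldn7* stood at 946 CPM (936 to 956) in WT and 773 CPM (762 to 784) in *Tipe0*-/- cells, a log2 ratio of -0.29 (-0.32 to -0.27). *Cldn3* stood at 341 CPM (335 to 347) and 303 CPM (296 to 309.6), a log2 ratio of -0.17 (-0.21 to -0.13). Relative to the median *Cldn3* lay at -0.33, and at -0.23 with cells thinned to equal depth, under the fold. *Cldn15*, *Cldn23*, *Tjp1* and *Tjp3* lay within 0.08 of the median. *Vil1*, a brush border gene, had a log2 ratio of -0.31 and the epithelial adhesion gene *Epcam* one of 0.18.

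**Figure D5:**
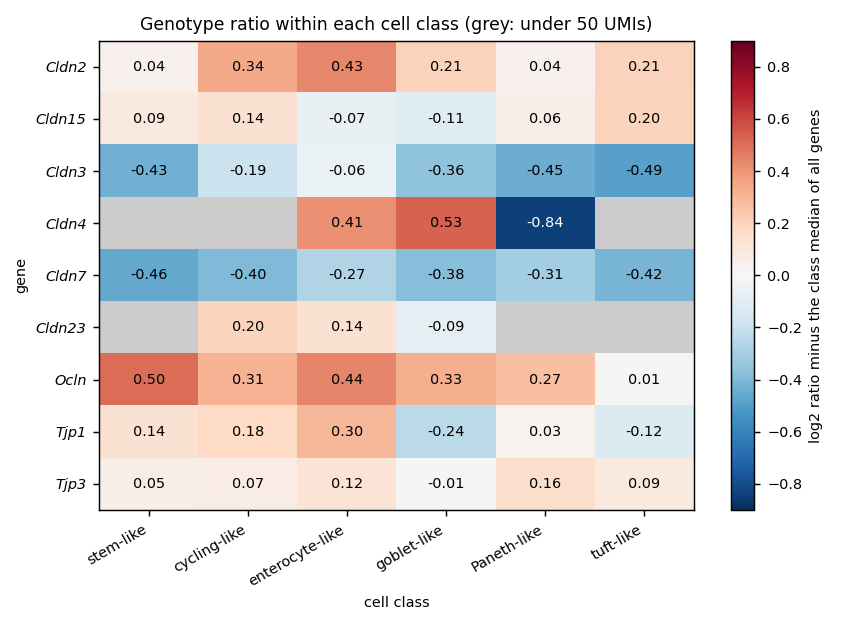
Log2 ratio of CPM, Tipe0-/- over WT, minus the median of all genes in the class (colour and printed value), for each tight junction gene (vertical axis) in 6 cell classes (horizontal axis), with 1 library per genotype. Grey cells had under 50 UMIs. *Cldn7* is below 0 in each class, in Paneth-like cells after subtracting a median of 0.48. *Ocln* is above 0.25 in each class but tuft-like cells, where it rests on 94 and 46 UMIs.

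Within classes the same fold from the class's own median was used. These medians were 0.48 in Paneth-like cells and between 0.01 and 0.15 in the other classes. Relative to the median, *Cldn7* was lower in each of the 6 classes, from -0.27 in enterocyte-like to -0.46 in stem-like cells. Among the enterocyte-like clusters *Cldn7* passed the fold in the *Slc40a1* cluster (-0.27), but not in the *Apoa1* (-0.22) and *Fabp6* (-0.13) clusters. In Paneth-like cells its own level was not lower, with 219 CPM in WT and 246 CPM in *Tipe0*-/- cells and a log2 ratio of 0.17 (0.05 to 0.29) before subtracting the median. In stem-like cells it stood at 736 CPM in WT and 553 CPM in *Tipe0*-/- cells. Its value in enterocyte-like cells lay near the fold, and 4 of 9 alternatives put it under. *Ocln* was higher in 5 of 6 classes, by 0.50 in stem-like, 0.44 in enterocyte-like, 0.33 in goblet-like, 0.31 in cycling-like and 0.27 in Paneth-like cells, and stood at 0.01 in tuft-like cells, of which the *Tipe0*-/- library held 49. The intervals of the ratio in cycling-like and Paneth-like cells included the class median. In tuft-like cells the log2 ratio was 0.02 (-0.53 to 0.53), from 94 and 46 UMIs. The alternatives ranged there from 0.01 to 0.60 relative to the median, so tuft-like cells are not shown to be an exception. Outside the 6 classes, the log2 ratio of *Ocln* was 0.01 (-0.39 to 0.40) in the replicating cluster, or -0.04 relative to its median. In the *Akr1c19* cluster it was 0.87 (0.20 to 1.53), or 0.84 relative to its median.

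*Cldn3* was lower, relative to the median, in stem-like (-0.43), goblet-like (-0.36), Paneth-like (-0.45) and tuft-like cells (-0.49). In Paneth-like cells its own level was 105 and 107 CPM, with a log2 ratio of 0.03 (-0.15 to 0.21). It lay at -0.06 in enterocyte-like cells, where its log2 ratio was 0.09 (0.01 to 0.17). *Cldn2* was higher in enterocyte-like (0.43) and cycling-like cells (0.34), and lay at 0.04 in stem-like cells, with a log2 ratio of 0.09 (-0.09 to 0.27). Whether the ratios differ between classes was not tested. *Cldn4* was higher by 0.53 in goblet-like and 0.41 in enterocyte-like cells, the latter with an interval that included the class median, and lower relative to the median in Paneth-like cells at -0.84, from 49 and 21 UMIs, with a log2 ratio of -0.36 (-1.19 to 0.39) before subtraction. By goblet-like cluster its values ranged from 0.67 to 1.21 relative to the cluster's median. Of the scaffolds, *Tjp1* was higher by 0.30 in enterocyte-like cells. *Cldn15* and *Tjp3* passed the fold in 0 of the 6 classes.

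As counts, 1 of 7 members was higher and 2 lower in stem-like cells, where 21.9% and 21.7% of all genes were. The counts were 2 and 1 of 8 in cycling-like cells (22.0% and 21.3% of genes), and 4 and 1 of 9 in enterocyte-like cells (24.1% and 24.1%). They were 2 and 2 of 9 in goblet-like cells (19.3% and 20.1%), 1 and 3 of 8 in Paneth-like cells (22.7% and 22.6%), and 0 and 2 of 7 in tuft-like cells (25.4% and 25.8%). With lists this short, the shares of members are not read as different from the background in any class.

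Of 53 other tight junction genes in the matrix, 32 had at least 50 UMIs. Of these, 4 were higher and 6 lower in *Tipe0*-/- cells by the same fold, against 19.5% and 21.0% of all genes, and their median log2 ratio was 0.12 against 0.15 for all genes. *Cldn8*, another claudin, had the highest ratio, with 80 UMIs (2.1 CPM) in WT and 138 UMIs (5.77 CPM) in *Tipe0*-/- cells, a log2 ratio of 1.46 (1.05 to 1.88). *Cgnl1*, which encodes paracingulin, followed with 0.53 (-0.01 to 1.07). *Marveld2*, which encodes tricellulin at the corners where 3 cells meet, had 15.8 and 22.6 CPM and a log2 ratio of 0.51 (0.34 to 0.68). The lowest were *Crb3*, a polarity gene, with 64.9 and 49.1 CPM and a log2 ratio of -0.40 (-0.50 to -0.30), *Ildr1*, an angulin gene, with -0.33 (-0.53 to -0.14), and *Arhgef2*, which encodes an exchange factor for RhoA, with -0.30 (-0.51 to -0.10). Of 16 adherens junction and desmosome genes, all with enough UMIs, 2 were higher and 1 lower, against the same shares of all genes, with a median of 0.19.

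In enterocyte-like against stem-like cells, 11 of 25 other tight junction genes were higher and 0 lower, against 19.4% and 19.3% of all genes. *Mylk*, which encodes the myosin light chain kinase acting on the actin ring at the junction, had the largest mean ratio, with 9.01 CPM in stem-like and 168 CPM in enterocyte-like cells of WT, and 15.1 and 173 CPM in *Tipe0*-/- cells. *Cldn8* followed, with 0 UMIs in WT stem-like cells and 4.16 CPM in WT enterocyte-like cells, and 3.49 and 11.9 CPM in *Tipe0*-/- cells. *Amotl1*, an angiomotin family gene, was at the other end with 20.6 and 0.612 CPM in WT and 15.5 and 0.264 CPM in *Tipe0*-/- cells. *Cgnl1* had 5.25 and 0.245 CPM, and 7.37 and 0.264 CPM. *Cldn8*, *Amotl1* and *Cgnl1* had under 50 UMIs over both classes in at least 1 library and so were not among the 25. *Mylk* was among the 25, but with 24 and 39 stem-like UMIs it reached 50 only through enterocyte-like cells. Along the tip score, 8 of 21 other tight junction genes were higher, among them *F11r* and *Cxadr*, and 2 were lower, *Cldn12* and *Ybx3*, against 23.9% and 23.7% of all genes.

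The genes with the profile most like each member were sought among 3387 genes over 10 points, which were stem-like, cycling-like, enterocyte-like, goblet-like and Paneth-like cells of each library. The points of 1 library share its depth and free RNA. The Paneth-like point of each library was low for most members and for the median gene, at -1.75 and -1.29 against stem-like cells. A high r can rest largely on these points, and its size without them was not tested. *Cldn23* was most like *Pdzd3* (Pearson r = 0.997) and *Suox* (0.996). *Cldn7* was most like *Mdh1* (0.997) and *Fdft1* (0.99), *Tjp1* like *Map7* (0.995) and *Myl12b* (0.99), and *Tjp3* like *Atp5g3* (0.996) and *Arhgap32* (0.99). *Cldn2* was most like *Ddx5* (0.99) and *Dab2ip* (0.99), *Cldn15* like *Elf3* (0.99) and *Cmas* (0.99), *Cldn3* like *Trim26* (0.99) and *Rac1* (0.99), and *Ocln* like *Clk1* (0.98) and *Trim2* (0.98). *Cldn4* had no gene so close, with *Prr15* at 0.87 and *Sct* at 0.84.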

How the data were processed

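Ileal epithelial cells of 1 WT and 1 *Tipe0*-/- library were analysed, each pooled from several mice. Per the labels and the study's methods, Cell Ranger with mm10 was used, and the deposited values are raw UMI counts for 27998 genes per cell, not normalized. No cell was left out. The members and lists were chosen with earlier results of these data known. Cells were clustered with Seurat 5.3.0 (R 4.3.3) on 528 variable genes, without junction genes and 117 genes of the study's genotype comparison, with 14 principal components and resolution 0.8. Clusters were named from marker lists, with 3 or more markers required. Counts were summed per group in Python 3.11.15 (numpy 2.4.6, scipy 1.17.1), with exact 95% Poisson, binomial and Clopper-Pearson intervals and 0.5 added to sums in log2 ratios. The ratio step was tested on simulated data with known changes. Doublets were scored with Scrublet in Scanpy 1.11.5, whose calls (15 and 3 cells) were too rare to be trusted. One alternative therefore dropped the 5% of cells scored highest. Genes outside the list were named by rank: among other tight junction genes the 3 highest and 3 lowest ratios between libraries and the 2 highest and 2 lowest between enterocyte-like and stem-like cells, and the 2 genes most like each member. *Vil1*, *Epcam* and *Tnfaip8* served as checks, and *F11r*, *Cxadr*, *Cldn12* and *Ybx3* were named after their values were seen. Promoter sequences matched 8 of 9 members.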

Additional observations from a re-analysis of the deposited data

Results flagged for a closer look

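*Cldn4* differed in the direction of its ratio between classes. Relative to the class median of all genes, the log2 ratio of *Tipe0*-/- over WT was 0.53 in goblet-like cells, from 109 and 134 UMIs, and -0.84 in Paneth-like cells, from 49 and 21 UMIs, a gap of 1.37. The goblet-like clusters each lay above the class value, at 0.68 (*Spdef*), 1.21 (*Retnlb*) and 0.67 (*Fer1l6*). The *Spdef* cluster, low in *Cldn4*, held 424 of 750 WT and 324 of 515 *Tipe0*-/- goblet-like cells. The part of this makeup in the class value was not tested. In Paneth-like cells the ratio before subtracting the median was -0.36 (-1.19 to 0.39). Relative to the median, the alternatives with at least 50 UMIs ranged from -0.84 to -0.60. With cells thinned to 3000 UMIs the value was 0.78, but from under 50 UMIs. With 1 library per genotype the difference was not tested.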

How the results depend on the processing

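No library was left out, since each genotype has 1. No paired analysis was possible because each genotype has 1 library. Depth limits *Cldn4* and *Cldn23* most, which had under 50 UMIs in several classes, and the lymphocyte-like background. Of 196 counts of members under the alternatives, 164 stayed within 1.5 times the reported count and 32 moved. Members were counted relative to the all-gene median. Scaling by the median ratio, and totals without mitochondrial and the most abundant genes, shift all genes alike and so could not change a count. Their counts are among the 164 and are no evidence of stability. Of 63 single ratios, 13 moved beyond their counting interval. Of these, 7 moved under scaling by the median ratio, which subtracts the all-gene median by construction. Under that scaling the ratios of *Cldn15* (-0.01), *Cldn23* (-0.08) and *Tjp1* (-0.01), which did not pass the fold, turned negative, and 0 ratios past the fold changed sign. The cause of the other moves was not tested.

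Between whole libraries, 1 in place of 2 members was lower with the mean over cells and with thinning. Within stem-like cells, 2 in place of 1 were higher with the mean over cells and with thinning, and 0 with classes from each cell's own scores. Within cycling-like cells, 2 in place of 1 were lower with variance stabilization, at resolutions 0.5 and 1.2 and with each cell's own scores, under which 1 in place of 2 was higher. Within enterocyte-like cells, 2 in place of 4 were higher with the mean over cells, and 0 in place of 1 were lower with it, with thinning, at resolution 0.5 and with each cell's own scores. Within Paneth-like cells, 2 in place of 1 were higher with the mean over cells, and 0 with variance stabilization and each cell's own scores. Within tuft-like cells, 3 in place of 0 were higher with the mean over cells, and 1 with thinning and variance stabilization. Against stem-like cells, 0 in place of 1 were higher in cycling-like cells with variance stabilization, resolutions 0.5 and 1.2 and each cell's own scores. In goblet-like cells 2 in place of 1 were higher with each alternative but totals without mitochondrial and the 20 most abundant genes, which could not change the count. With 2 ranges of the tip score, 0 in place of 1 member was lower.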
